A study of Homo sapiens with 12 samples.

Results

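RNA of the NOTCH1-targeted line (NKO) was compared with RNA of the control line (NT), both grown for 24 hours on plates coated with the Notch ligand DLL4. The comparison rests on 4 of the 12 libraries of the series, 2 for each line, chosen by the line and coating in their labels. Both lines are TeloHAEC, human aortic endothelial cells immortalised with telomerase and kept at the same passage. NKO cells had received Cas9 and a guide against NOTCH1, their genotype is given as NOTCH1 KO and that of NT cells as wild type, and the coating solution held 2.5 mg/mL of DLL4. Another line (TKO) was targeted at TSPAN14, and each line was also grown on IgG at 2.5 mg/mL, the control protein, with 2 libraries per group. Each targeted gene is represented by 1 line, so the target and the line cannot be told apart. Whether a line was 1 clone or a mixed population is not given in the sources used here.

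NOTCH1 is a receptor that is cut when a ligand on a neighbouring surface pulls on it. The ligand-induced cut is made by ADAM proteases and the next by gamma-secretase. The freed intracellular part enters the nucleus and joins the DNA-binding protein RBPJ and a MAML coactivator, and together they raise target genes such as the HES and HEY repressors. In endothelium the pathway is known for its part in arterial identity, in the choice between tip and stalk cells of a sprout, and in slowing of the cell cycle by DLL4.

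Levels are in TPM, transcript abundances corrected for length, in which the values of a library add to nearly the same total whatever its depth. The number of reads is lost in that step, so the depth is unknown. Differences are NKO minus NT on the log2(TPM + 1) scale, with the standard error (SE) of a limma fit, and understate the change of genes at low levels. A gene was called when limma's two-sided p, adjusted by Benjamini-Hochberg over 13299 genes, was below 0.05. Library values are given in the order NT 2, NT 3, NKO 1 and NKO 2, after the numbers in the column names. The labels call the libraries biological replicates and say no more, so p-values measure the spread between libraries within groups. That spread was estimated over all 12 libraries of the series, also those of TKO and those on IgG. For 1 gene alone, an exact two-sided permutation test of 2 against 2 libraries has 0.333 as its smallest p.

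NKO cells differed from NT cells on DLL4 in 2758 genes, or 20.7% of those tested: 1520 (11.4%) were higher and 1238 (9.31%) lower. Higher genes made up 55.1% of the calls, but 44.0% after median-of-ratios rescaling, so the balance of directions depended on the scaling. The median difference of all genes was 0.06. The libraries of the lines did not overlap in 8257 of the 13299 genes, among them all 2758 called, so a lack of overlap adds nothing to a call. The count of calls was 1450 without NKO 1, 1802 without NKO 2, 1693 without NT 2 and 1454 without NT 3. At least 2-fold differences were called for 601 genes (4.52%), 259 higher (1.95%) and 342 lower (2.57%). Across genes Pearson's r was 0.991 between the NT libraries, 0.989 between the NKO libraries and 0.968 to 0.969 between lines. All 4 libraries looked endothelial: each of 26 endothelial genes reached 1 TPM or more in at least 1 of them, and the sum of these genes was 4366 to 4683 TPM in NT and 4397 to 4758 in NKO. Of the other cell types' markers, 8 of 10 fibroblast, 10 of 12 leukocyte, 5 of 7 lymphatic and 8 of 8 blood genes stayed below 1 TPM in every library, as did 5 of 10 smooth muscle and 5 of 10 epithelial genes. The smooth muscle sum was 278 to 320 TPM in NT, mostly RGS5, and 131 to 141 in NKO, mostly SMTN, while the fibroblast sum, mostly PDPN, was 104 to 117 and 265 to 491. The epithelial sum, mostly KRT18, was 866 to 872 TPM in NT and 913 to 1354 in NKO. The lymphatic sum, nearly all LYVE1 and PDPN, was 207 to 235 TPM in NT and 328 to 565 in NKO. COL1A1, MYH11, PTPRC, PROX1 and EPCAM, picked from these lists, were all below 1 TPM. The part of the markers that were present in the results was not tested. In bulk RNA, fewer cells expressing a gene and less RNA per cell cannot be told apart.

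NOTCH1 itself (chromosome 9, 136494433 to 136545786, minus strand, GENCODE 29 on GRCh38) had 31.5, 24.7, 16.5 and 19.5 TPM. Both NKO libraries lay below both NT libraries, by 0.61 ± 0.16 (SE, limma adjusted p = 0.0225). The call was lost without NT 2 (adjusted p = 0.158) and without NKO 1 (adjusted p = 0.150). With no filter on low values the adjusted p was 0.0751. On IgG the difference was -0.10 (adjusted p = 0.720). A transcript level does not show whether a frameshift removed the protein, so this value alone does not check the label. The other receptors measured, NOTCH2 (8.0, 7.10, 8.4 and 6.71 TPM) and NOTCH4 (2.33, 2.64, 2.99 and 1.43 TPM), overlapped between the lines and were not called. TSPAN14, a tetraspanin that escorts ADAM10, was at 186, 172, 174 and 177 TPM, with a difference of -0.02 ± 0.10 (limma adjusted p = 0.900).

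The promoters of 3 classical targets are shown because they carry the letters TGGGAA, the core of the sequence RBPJ binds. The sequences are RefSeq's (GRCh38.p14), read 5′ to 3′ along the gene's strand, and capitals mark TGGGAA or its reverse complement TTCCCA. The HES1 stretch is chr3:194135898-194136144 (plus strand). The 30 bases around the match are chr1:1000156-1000185 (minus strand) for HES4 and chr6:125749407-125749436 (plus strand) for HEY2.
HES1: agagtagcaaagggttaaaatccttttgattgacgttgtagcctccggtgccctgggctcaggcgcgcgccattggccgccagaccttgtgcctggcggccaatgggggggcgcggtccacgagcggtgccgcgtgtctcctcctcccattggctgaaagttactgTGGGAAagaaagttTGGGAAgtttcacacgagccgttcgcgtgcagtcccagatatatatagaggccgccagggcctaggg
HES4: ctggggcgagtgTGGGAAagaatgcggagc
HEY2: tccgcggccgcgTTCCCAcgcctcggctgg
In the HES1 promoter the letters occur 2 times, beginning 84 and 70 bases before RefSeq's start, in HES4 once at 76 bases and in HEY2 once at 213 bases, on the opposite strand. Within 250 bases before the start, either orientation was found in 3 of the 10 lowered Notch targets with a RefSeq promoter, those shown, and in 19.4% of the 9642 tested genes with one. The share was 17.1% among genes higher in NKO and 18.6% among genes lower in NKO. The windows of DLL4 and EFNB2 hold no match in these bases. The window length was chosen after the data were seen.

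Notch target genes were lower in NKO. Of 26 listed, 20 were tested: 15 fell, 2 rose and 3 were not called, against 9.31% lower and 11.4% higher among all genes. Their median difference was -0.89, against 0.06 for all genes, and the number called lower was 12 to 14 when each library was left out. On IgG the same 20 genes had a median of -0.15, with 6 lower and 0 higher. A test of the difference between coatings called 6 of the 20, against 0.887% of all genes. Among all genes on IgG 5.74% were lower and 4.92% higher, with a median of 0.06.

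HES4, a repressor of the HES family (chromosome 1, 998962 to 1000172, minus strand), had 123, 110, 6.28 and 9.19 TPM. Its difference was -3.77 ± 0.19 (SE, n = 2 per line, limma adjusted p = 9.1e-07). The NKO libraries were far below NT on DLL4, and HES4 was also lower on IgG (6.14 and 7.56 in NT, 0.706 and 1.32 in NKO). HEY2, a repressor of the HEY family known for arterial fate (chromosome 6, 125747664 to 125761269, plus strand), had 58.1, 54.8, 23.2 and 21.1 TPM. It fell by 1.31 ± 0.11 (limma adjusted p = 1.79e-05), while on IgG NKO had 15.6 and 13.4 TPM and NT 11.1 and 11.5. The HEY2 difference on DLL4 thus departed from that on IgG, by -1.65 ± 0.15 (limma adjusted p = 0.000843).

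HEY1, the other HEY repressor measured, had 7.05, 6.72, 2.41 and 2.52 TPM, fell by 1.19 ± 0.21 (limma adjusted p = 0.00293), and did not overlap between lines. HES2 was at 58.6, 48.5, 27.3 and 30.2 TPM and fell by 0.87. HES1, the founding target, was the least lowered of these, with 81.2, 78.9, 51.8 and 63.5 TPM and a difference of -0.47 ± 0.12 (limma adjusted p = 0.0196). The HES1 call was lost without NKO 1 (adjusted p = 0.166), without NT 2 (0.0930) and without NT 3 (0.0796). HES6 (9.02, 9.32, 6.97 and 5.37 TPM, adjusted p = 0.0400) was likewise lost without NKO 2 (0.247), NT 2 (0.116) or NT 3 (0.165). HES7 and NRARP, a feedback inhibitor of the receptor's intracellular part, were not called: NRARP had 16.7, 14.6, 11.7 and 16.2 TPM, with overlapping lines, and HES7 differed by -0.41 (adjusted p = 0.387).

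**Figure D1:**
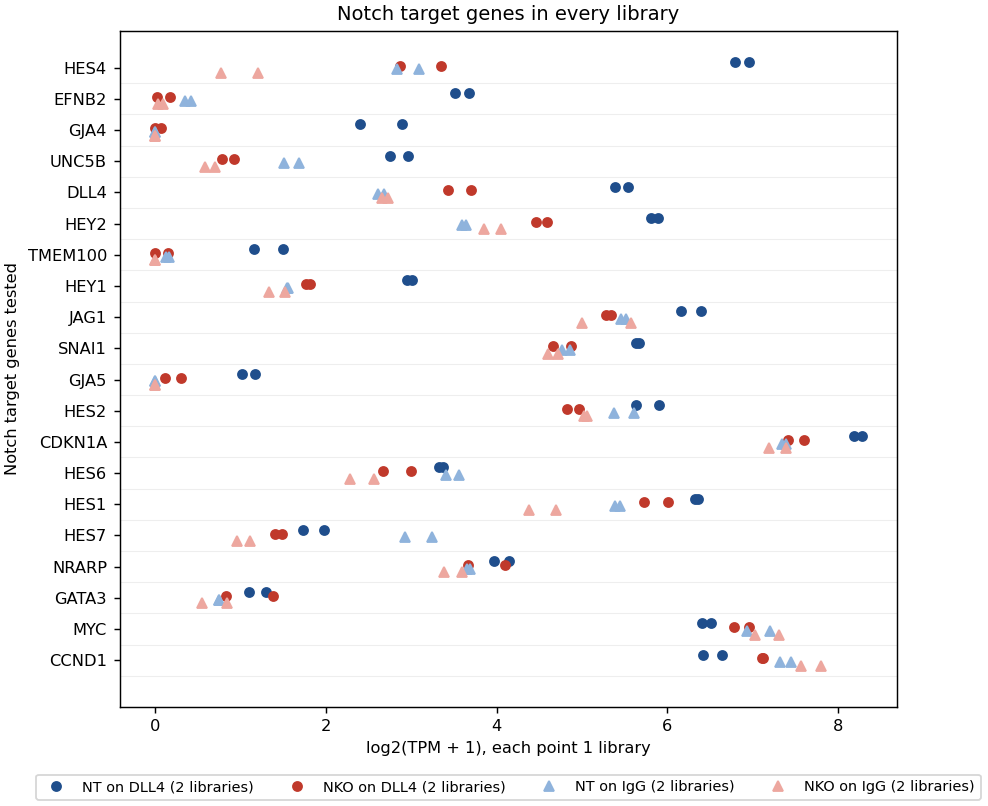
Level of the 20 Notch target genes tested, 1 point per library on the log2(TPM + 1) scale, circles on DLL4 and triangles on IgG, blue for NT and red for NKO, paler on IgG. For HES4, EFNB2, GJA4, UNC5B, DLL4 and HEY2 both NKO libraries on DLL4 lie below both NT libraries on DLL4, while MYC and CCND1 lie the other way.

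Among targets that act at the cell surface, EFNB2 changed most. EFNB2, ephrin B2, a ligand that marks arteries (chromosome 13, 106489731 to 106535662, minus strand), had 11.8, 10.4, 0.0158 and 0.131 TPM. It was near 0 in both NKO libraries, a difference of -3.49 ± 0.19 (limma adjusted p = 1.17e-06). The TKO libraries on DLL4 had 14.5 and 10.4 TPM, as high as NT, and NKO was lower than TKO by 3.63 ± 0.19 (limma adjusted p = 5.28e-07). GJA4, the gap junction protein connexin 37 (chromosome 1, 34792998 to 34795747), had 6.42, 4.27, 0 and 0.0486 TPM, and was listed at 0 in all 4 IgG libraries of these lines. It was also near 0 in TKO (0.0608 and 0.106 TPM).

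UNC5B, a guidance receptor, had 6.80, 5.72, 0.905 and 0.717 TPM and fell by 2.00 ± 0.17 (limma adjusted p = 1.94e-05). GJA5, connexin 40, was low throughout, at 1.25, 1.03, 0.0821 and 0.239 TPM, and its call (adjusted p = 0.0117) was lost without NKO 1 (0.0794) or NT 2 (0.0709). TMEM100, a membrane protein downstream of ALK1, was at 1.83, 1.24, 0.111 and 0 TPM. SNAI1, a repressor of epithelial genes, had 48.5, 50.0, 24.3 and 28.1 TPM, and CDKN1A, the cell cycle inhibitor p21, had 308, 290, 169 and 193. Both were lower in NKO without overlap, by 0.89 and 0.72, at limma adjusted p = 0.000225 and 0.000229.

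CCND1, cyclin D1, and MYC, a growth regulator, were the 2 listed targets that were higher in NKO. CCND1 had 98.6, 84.6, 137 and 138 TPM, and its call (0.58, adjusted p = 0.00850) was lost without NT 3 (0.0812). MYC had 90.3, 84.0, 123 and 109 TPM, and its call (0.41, adjusted p = 0.0340) was lost without NKO 1 (0.203), NT 2 (0.0787) or NT 3 (0.180). GATA3, a transcription factor, overlapped between the lines.

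Of 7 ligands tested, 4 were lower and 1 higher, a called share of 71.4% against 20.7% of all genes. DLL4, the transcript of the coated ligand (chromosome 15, 40929333 to 40939073, plus strand), had 45.6, 40.7, 9.75 and 11.9 TPM. It fell by 1.90 ± 0.13 (limma adjusted p = 4.56e-06). On IgG the lines were alike in level, with 5.09 and 5.41 TPM in NT and 5.33 and 5.63 in NKO, and the coating changed the line difference by -1.95 ± 0.18 (limma adjusted p = 0.000843). TKO cells on DLL4 had more, 59.1 and 62.6 TPM.

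JAG1, the main Jagged ligand of these cells, had 83.0, 70.2, 39.6 and 37.8 TPM and fell by 0.96 ± 0.17 (limma adjusted p = 0.00266). DNER, an atypical ligand, was at 111, 99.7, 37.5 and 49.6 TPM, and its difference was -1.27 on both coatings. DLL3, a ligand that does not activate receptors in trans, fell by 0.99 from 2.89 and 2.84 TPM to 1.21 and 0.704. JAG2 was higher, at 0.883, 0.848, 2.51 and 3.01 TPM, and its call (adjusted p = 0.00967) was lost without NKO 2 (0.0639) or NT 3 (0.0561). DLL1 and DLK1 overlapped between the lines.

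The enzymes that add sugars to Notch receptors were unequal. Of 10 tested, 4 rose and 0 fell, a called share of 40% against 20.7% of all genes. MFNG, Manic Fringe, which adds a sugar that alters the response to ligands (chromosome 22, 37469063 to 37486401, minus strand), had 31.5, 27.6, 102 and 106 TPM. It rose by 1.78 ± 0.09 (limma adjusted p = 1.09e-06). On IgG it was 113 and 123 TPM in NT and 124 and 133 in NKO, so the NT libraries on DLL4 were the low ones. The difference between coatings was 1.65 ± 0.13 (limma adjusted p = 0.000405). LFNG and RFNG, the other Fringe enzymes, were not called.

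XXYLT1, a xylosyltransferase, had 49.8, 44.7, 74.4 and 73.5 TPM and rose by 0.64. KDELC2 (18.2, 17.3, 39.7 and 37.5 TPM) rose by 1.08, and lies in a stretch of chromosome 11, described below, whose genes had a median of 0.80. GXYLT1 was called at an adjusted p of 0.0291, lost without NKO 1 (0.0616), NKO 2 (0.168) or NT 3 (0.205). POFUT1 and POGLUT1, which add the first fucose and glucose, were not called.

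Of 14 genes of receptor cleavage, 3 fell and 1 rose, a called share of 28.6% against 20.7% of all genes. FURIN, which cuts the receptor during its maturation, had 200, 190, 110 and 107 TPM and fell by 0.84 ± 0.09 (limma adjusted p = 8.97e-05). TSPAN33, a TspanC8 tetraspanin, had 7.47, 6.21, 2.00 and 1.83 TPM, and fell by 1.42 on DLL4 and by 1.39 on IgG. TSPAN15 (183, 188, 94.6 and 114 TPM, adjusted p = 0.0179) was lost without NKO 1 (0.122), NT 2 (0.0713) or NT 3 (0.0920), and the higher TSPAN5 (adjusted p = 0.0189) without NKO 1 (0.120) or NT 3 (0.152). ADAM10, the protease of the ligand-induced cut, had 138, 111, 123 and 142 TPM, with overlapping lines. The gamma-secretase genes PSEN2, NCSTN, APH1A, APH1B and PSENEN were not called.

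In the nuclear complex and its regulators, 2 of 19 were called, both higher, a share of 10.5% against 20.7% of all genes. NUMB, an inhibitor of the receptor, had 37.5, 32.0, 52.8 and 53.3 TPM (adjusted p = 0.00490, lost without NT 3 at 0.0508). DTX3, of the Deltex ligases, was called at 0.0161, lost without NKO 1 (0.104), NT 2 (0.0673) or NT 3 (0.0802). RBPJ was at 11, 10.4, 10.2 and 10.4 TPM and the lines overlapped.

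Arterial genes were lower as well. Of 27 tested, 18 fell, 3 rose and 6 were not called, against 9.31% lower and 11.4% higher among all genes. Their median was -0.96. On IgG 5 were lower and 3 higher, with a median of -0.05. The test of the difference between coatings called 9 of the 27, against 0.887% of all genes. In TKO against NT on DLL4, which shares the NT libraries, 9 were lower and 9 higher. Because 11 of the 27 are also Notch targets or ligands, the other 16 were counted separately: 8 fell and 2 rose in NKO on DLL4. SEMA3G, a secreted semaphorin of arterial endothelium, had 4.10, 4.81, 0.0491 and 0.243 TPM. EPAS1, the hypoxia-inducible factor HIF-2 alpha, had 184, 159, 64.9 and 74.6 TPM and fell by 1.29 ± 0.16 (limma adjusted p = 0.000314). CLDN5, a tight junction protein, was at 44.8, 36.9, 15.1 and 16.7 TPM, and was lower on IgG too, by -2.00.

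BMX, a kinase of arterial endothelium, went the other way, with 2.56, 2.21, 11.5 and 13 TPM and a rise of 1.97 ± 0.12 (limma adjusted p = 2.08e-06). The arterial factor SOX17 was not called (adjusted p = 0.0894). The called SOX7 lies, with SOX17, in a stretch of chromosome 8 whose genes had a median of -0.48. Venous genes were called in 60% of cases, against 20.7% of all genes. Of 10 venous genes 4 rose and 2 fell, but 1 rose without NKO 2 or NT 3, and 0 fell without NKO 1 or NT 2. VWF, von Willebrand factor, had 16.3, 9.60, 42.8 and 29.4 TPM, and its call (1.43, adjusted p = 0.00749) was lost without NKO 1 (0.0682) or NT 3 (0.0748). EPHB4, the venous receptor of ephrin B2, was lower, at 160, 149, 98.1 and 112 TPM, and was lost without NKO 1 (0.0616) or NT 2 (0.0508).

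Tip cell genes moved both ways: of 15 tested, 4 rose and 8 fell (5 without NT 2). The called share was 80%, against 20.7% of all genes. APLN, the peptide apelin made by tip cells, had 110, 108, 547 and 508 TPM, a rise of 2.26 ± 0.13 (limma adjusted p = 1.7e-06). ESM1, endocan, a secreted tip cell marker, had 58.9, 58.1, 159 and 125 TPM and rose by 1.25. ANGPT2, a TIE2 ligand, fell by 1.16 (90.3, 81.7, 39.8 and 36.2 TPM), and lies in the chromosome 8 stretch (median -0.48).

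FLT1, a decoy receptor for VEGF, had 82.6, 73.6, 42.5 and 40.5 TPM and fell by 0.89 ± 0.11 (limma adjusted p = 0.000243). KDR, the main VEGF receptor, was at 69.9, 55.5, 39.3 and 40.7 TPM (adjusted p = 0.00830), and was lost without NKO 1 (0.0557) or NT 2 (0.0754). PGF, a ligand of FLT1, fell by 0.45, and NRP1 was not called. Of the tested genes of the VEGF system 50% were called, against 20.7% of all genes. In all, 3 of 8 genes of the VEGF system fell and 1 rose, and none rose without NKO 2 or NT 3.

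In the ephrin and angiopoietin list 6 of 13 fell and 1 rose, a called share of 53.8% against 20.7% of all genes. EFNA1, an ephrin A ligand, had 42.0, 39.6, 17.7 and 23.6 TPM and fell by 0.96. EPHB3, an ephrin B receptor, had 5.02, 5.09, 12.4 and 20.8 TPM and rose by 1.5. In the BMP list 5 of 20 rose and 6 fell, but 2 and 3 without NKO 1 or NT 2, and 3 and 3 without NT 3. BMP genes were called in 55% of cases, against 20.7% of all genes. ID3, a direct BMP target, had 171, 166, 78.8 and 81.5 TPM, and fell by 1.06 on DLL4 and by 0.82 on IgG. ENG, the co-receptor endoglin, rose by 0.57 (469, 449, 665 and 699 TPM). Follistatin, FST, a secreted trap for activin, had 1.97, 2.08, 18.6 and 14.8 TPM. It rose by 2.54 ± 0.15 (limma adjusted p = 1.95e-06), but by 0.23 on IgG, and the difference between coatings was 2.31 (adjusted p = 0.000843). INHBA, the activin A subunit, fell from 7.65 and 7.35 TPM to 0.120 and 0.178, and was lower on IgG too, by -2.50.

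**Figure D2:**
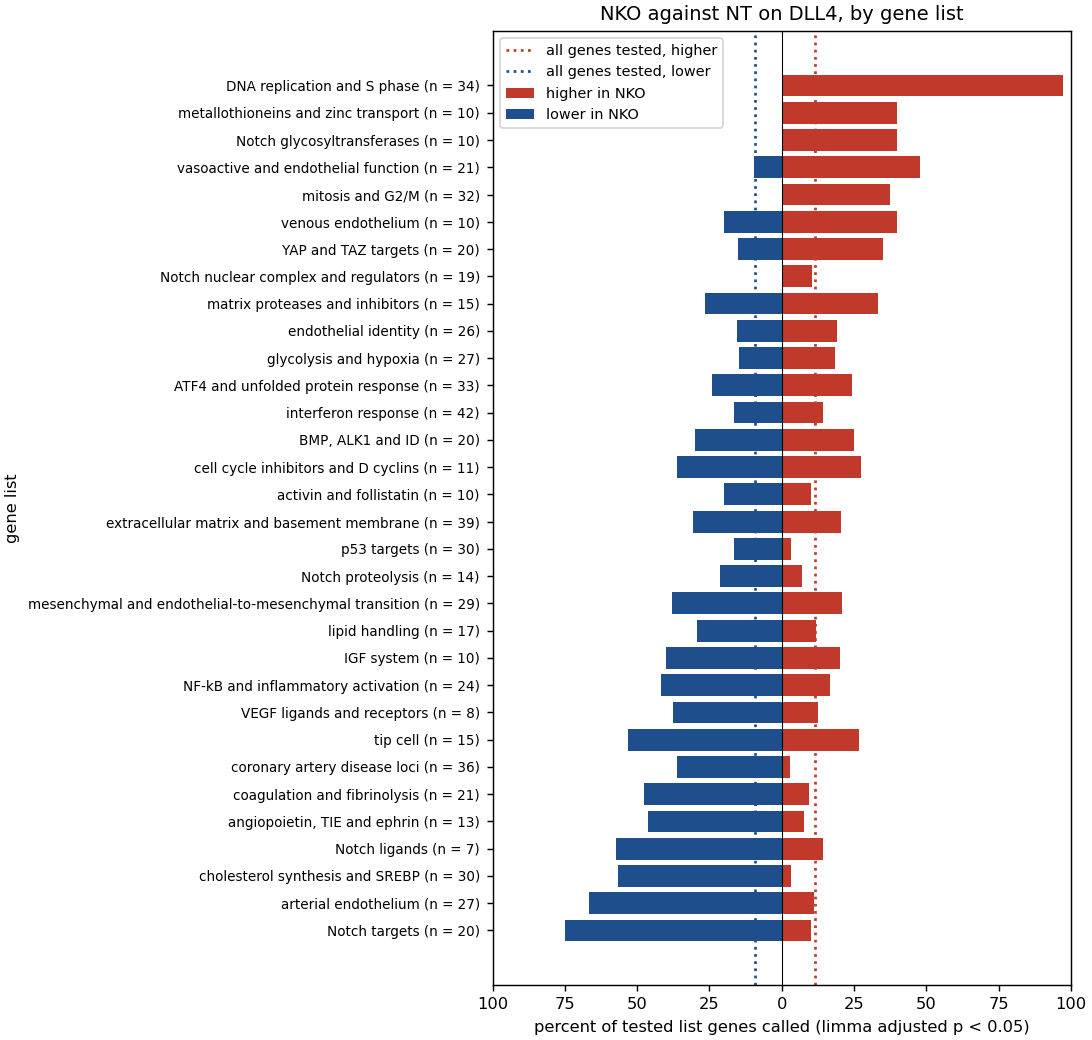
Percent of the tested genes of each list called higher (red, to the right) or lower (blue, to the left) in NKO on DLL4, with dotted lines at the shares of all genes tested. DNA replication genes reach furthest to the right (33 of 34) and Notch targets furthest to the left (15 of 20), and lists share some genes.

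Genes of DNA replication and S phase were higher in NKO. Of 34 tested, 33 rose and the remaining one, GINS1, was higher by 0.40 at an adjusted p of 0.0574. Their median was 0.87, and the number called higher was 27 to 30 when each library was left out. The called share on DLL4 was 97.1%, against 20.7% of all genes. On IgG 16 of the 34 were higher and the median was 0.41. The test of the difference between coatings called 3 of the 34, against 0.887% of all genes.

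E2F1, a transcription factor that drives S phase genes, had 16.3, 15.4, 40.7 and 39.0 TPM and rose by 1.28 ± 0.10 (limma adjusted p = 8.75e-06). MCM2, a subunit of the replicative helicase, had 18.8, 17.3, 45.7 and 44.1 TPM and rose by 1.27. TYMS, thymidylate synthase, had 99.4, 92.8, 212 and 212 TPM. In each of these the NKO libraries were about equal and above both NT libraries. PCNA, the polymerase clamp, had 236, 225, 401 and 372 TPM and rose by 0.74, and CCNE2, cyclin E2, had 8.82, 7.25, 29.5 and 22.0 TPM and rose by 1.56.

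Mitotic genes differed less. Of 32 tested, 12 rose and 0 fell, with a median of 0.22. The number called was 4 without NKO 1, 7 without NKO 2, 10 without NT 2 and 3 without NT 3. BIRC5, survivin, had 69.7, 63.7, 89.0 and 105 TPM, and CDC20, an activator of the anaphase complex, had 184, 166, 243 and 228. The called share on DLL4 was 37.5%, against 20.7% of all genes. On IgG 0 mitotic genes rose and 2 fell. The test of the difference between coatings called 0 of the 32, so the counts do not show a difference between coatings.

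CDKN2B, the inhibitor p15 of cyclin D kinases, was lower in NKO, with 45.4, 42.7, 13.5 and 15.8 TPM and a fall of 1.53 ± 0.12 (limma adjusted p = 1.04e-05). On IgG it differed by -0.13, and the difference between coatings was -1.40 (adjusted p = 0.00276). Of 30 p53 targets 5 fell and 1 rose, a called share of 20%, near the 20.7% of all genes, with a median of -0.01. CDKN1A was one of the 5, and TNFRSF10A and TNFRSF10B lie in the chromosome 8 stretch. GADD45A, a stress-induced growth inhibitor, had 95.9, 85.1, 59.1 and 57.0 TPM, and TP53I3, an oxidoreductase, 136, 127, 84.3 and 86.5.

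Cholesterol synthesis genes were lower. Of 30 tested, 17 fell and 1 rose, with a median of -0.38, but the number lower was 6 without NKO 1, 7 without NT 2, 12 without NT 3 and 14 without NKO 2. INSIG1, which holds the sterol sensor SCAP in place, had 108, 96.7, 56.2 and 52.1 TPM and fell by 0.91 ± 0.11 (limma adjusted p = 0.000233). MVD, of the mevalonate pathway, had 120, 122, 73.6 and 80.7 TPM. The called share on DLL4 was 60%, against 20.7% of all genes. On IgG 4 of the 30 were lower, with a median of -0.16. The test of the difference between coatings called 0 of the 30, so the counts do not show a difference between coatings. FDFT1 lies in the chromosome 8 stretch. In TKO against NT on DLL4, which shares the NT libraries, 17 of the 30 were lower and 3 higher, with a median of -0.29.

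**Figure D3:**
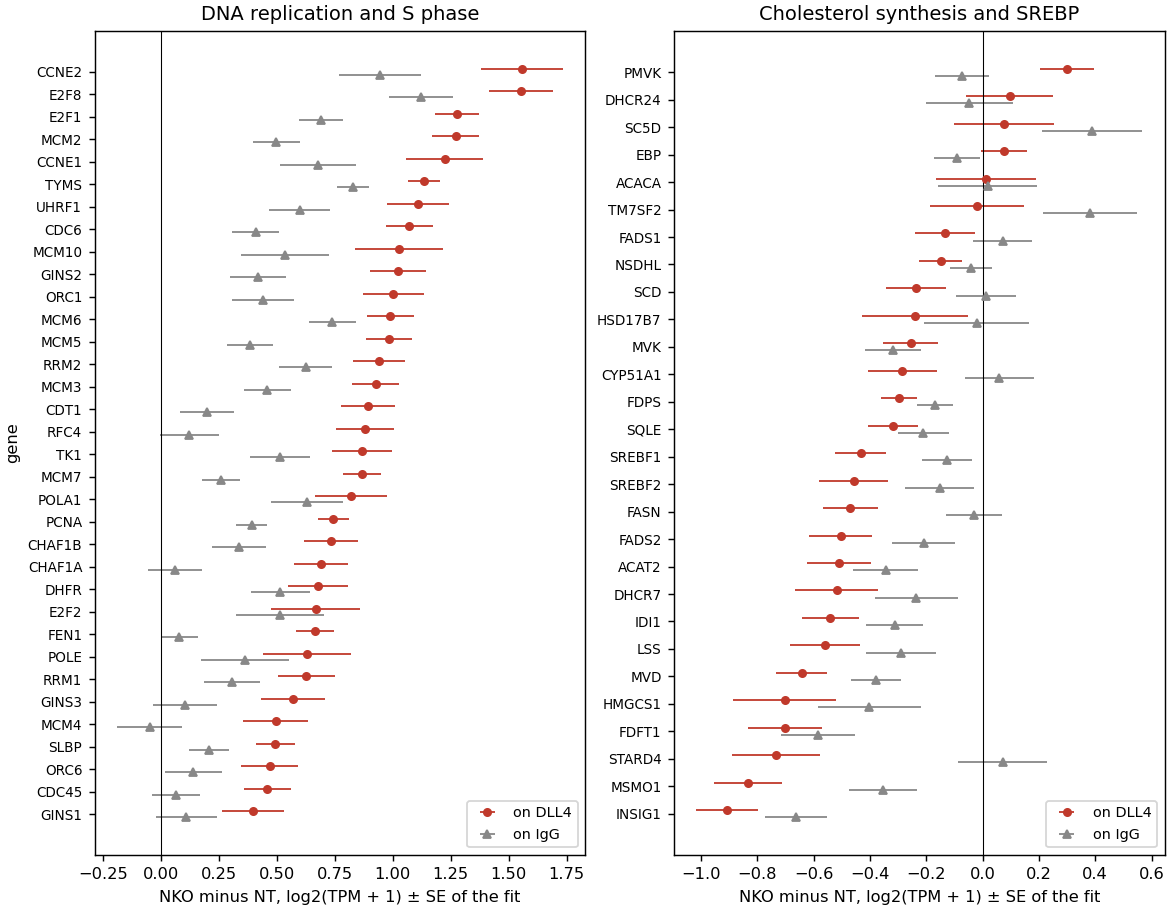
NKO minus NT on the log2(TPM + 1) scale with its standard error, for the tested genes of DNA replication (left) and of cholesterol synthesis (right, without members not reported here), circles on DLL4 and triangles on IgG. All 34 replication genes lie to the right of 0 on DLL4, from 0.40 for GINS1 to 1.56 for CCNE2, and most cholesterol genes lie to the left, down to -0.91 for INSIG1.

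Amino acid response genes and chaperones of the endoplasmic reticulum were split, with 8 of 33 higher and 8 lower. Their called share was 48.5%, against 20.7% of all genes. The higher ones included ATF4 (263, 264, 419 and 373 TPM), ASNS, asparagine synthetase (26.3, 23.6, 55.9 and 49.5), and CHAC1, which degrades glutathione (3.70, 3.66, 17.0 and 11.9). CALR, the chaperone calreticulin, was among the lower ones, at -0.36. When each library was left out, 5 to 8 were higher and 2 to 5 lower.

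Of 24 inflammatory genes 10 fell and 4 rose, with 1 to 3 rising when each library was left out and 1 without NT 2. IL33, a nuclear alarmin, had 14.5, 14.1, 1.77 and 1.73 TPM and fell by 2.48 ± 0.21 (limma adjusted p = 1.94e-05). On IgG IL33 differed by 0.15, and the difference between coatings was -2.63 (adjusted p = 0.00241). IL32, a cytokine, had 671, 679, 193 and 163 TPM, and CXCL1, a neutrophil attractant, 140, 147, 50.1 and 51.5. Both were lower on IgG by as much, -1.84 and -1.53. Of 42 interferon genes 6 rose and 7 fell, with 2 to 5 and 2 to 4 when each library was left out. The called share was 31.0% for the interferon genes and 58.3% for the inflammatory genes, against 20.7% of all genes. BST2, tetherin, rose from 28.7 and 31.6 TPM to 87.1 and 109, and TAP1, a peptide transporter, fell by 0.85.

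Genes of coagulation and fibrinolysis were lower in 10 of 21 cases and higher in 2. This list and that of vascular tone each had a called share of 57.1%, against 20.7% of all genes. PLAU, urokinase, had 347, 290, 85.0 and 76.1 TPM and fell by 1.97 ± 0.10 (limma adjusted p = 7.24e-07). F2R, the thrombin receptor PAR1, had 519, 468, 242 and 256 TPM, a difference of -0.98 on DLL4 and 0.19 on IgG. The difference between coatings for F2R was -1.17 (adjusted p = 0.00257). Genes of vascular tone rose in 10 of 21 cases (5 without NT 3) and fell in 2. EDN1, the vasoconstrictor endothelin 1, had 15, 15, 44.1 and 64.5 TPM and rose by 1.76. NOS3, the endothelial nitric oxide synthase, was not called (113, 100, 92.8 and 94.0 TPM).

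In the matrix list 12 of 39 fell and 8 rose, a called share of 51.3% against 20.7% of all genes. COL4A1, of the basement membrane, had 1025, 880, 453 and 497 TPM and fell by 1.00. FN1, fibronectin, had 2118, 1937, 981 and 820 TPM. NID2, nidogen 2, had 97.0, 88.4, 34.9 and 27.4. POSTN and BGN were among those that rose, with values given below. Without NT 2 the count of lower matrix genes was 7. On IgG 7 matrix genes fell and 12 rose, with medians of the list of -0.16 on DLL4 and 0.20 on IgG. The test of the difference between coatings called 4 of the 39, against 0.887% of all genes.

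Of 29 mesenchymal genes 11 fell and 6 rose, but 7 and 3 without NT 2, and the median was -0.19. On IgG 3 of them fell and 11 rose, with a median of 0.15. The test of the difference between coatings called 5 of the 29, against 0.887% of all genes. The called share on DLL4 was 58.6%, against 20.7% of all genes. The list held SNAI2, a repressor related to SNAI1, at 21.4, 21.6, 1.51 and 1.73 TPM. SNAI2 differed by -3.11 and lies in the chromosome 8 stretch (median -0.48). MYL9, a myosin light chain, rose from 10.3 and 13.3 TPM to 68.1 and 67.2, and by 2.82 on IgG. ACTA2, smooth muscle actin, fell by 0.69. YAP and TAZ targets were called in 50% of cases on DLL4. The test of the difference between coatings called 4 of these 20 targets. Of 20 YAP and TAZ targets 7 rose (4 without NKO 2) and 3 fell, against 11 and 2 on IgG, and ARHGEF17, a guanine nucleotide exchange factor, fell by 1.5 on DLL4 (72.7, 58.8, 21.1 and 24.0 TPM) and differed by 0.24 on IgG.

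Metallothioneins, small zinc-binding proteins, rose in 4 of 10 genes of the zinc list, a called share of 40% against 20.7% of all genes. MT2A had 678, 673, 2026 and 2192 TPM and rose by 1.64 ± 0.06 (limma adjusted p = 1.77e-07), against 0.28 on IgG. Metallothionein genes are near-identical copies, so reads may be split between them. Of 17 lipid genes 5 fell and 2 rose, and after median-of-ratios rescaling 10 fell. Before that rescaling 41.2% of the lipid genes were called. PPARG, a fatty acid sensor, had 26.5, 22.2, 7.08 and 8.31 TPM, LIPG, endothelial lipase, 535, 489, 196 and 237, and FABP5, a fatty acid carrier, 0.537, 0.108, 29.7 and 39.2.

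Of 10 genes of the IGF system 4 fell and 2 rose (1 rose without NKO 2, NT 2 or NT 3). IGF2 had 12.9, 13.1, 0.384 and 0.593 TPM, and IGFBP3, an IGF binding protein, 13.8, 11.4, 5.37 and 5.30. IGFBP3 fell by 1.09 on DLL4 and differed by 0.23 on IgG. Called shares were 60% for IGF genes, 33.3% for glycolysis and hypoxia genes and 38.9% for coronary artery disease loci. Among all genes 20.7% were called, 11.4% higher and 9.31% lower. Glycolysis and hypoxia genes rose in 5 of 27 cases (2 without NKO 1 or NT 2) and fell in 4: LDHA, lactate dehydrogenase, rose by 0.52, and SLC2A3, a glucose transporter, fell by 1.02. Of 36 genes near coronary artery disease loci 13 fell and 1 rose, among them CDKN2B, COL4A1, FURIN and FLT1, already described, and TRIB1, a pseudokinase of lipid traits (79.4, 65.7, 26.1 and 22.1 TPM).

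The genes with the largest differences were mostly not those of the Notch list. Of the 15 largest falls, 14 were also called lower on IgG, and of the 15 largest rises, 14 were also called higher there. In TKO against NT on DLL4, which shares the NT libraries, 13 of these falls and 12 of these rises were called in the same direction. TFF1, a trefoil peptide of mucosa (chromosome 21, 42362282 to 42366594, minus strand), had 395, 405, 5.09 and 6.15 TPM, the lowest of all log2 differences, and fell by 5.93 ± 0.30 (limma adjusted p = 9.63e-07). On IgG TFF1 fell by 3.39. POSTN, periostin, a matrix protein (chromosome 13, 37562583 to 37598844, minus strand), had 0.284, 0.477, 70.9 and 77.6 TPM, a rise of 5.77 ± 0.15 on DLL4 and 5.67 on IgG.

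OCIAD2 (0.759, 1.34, 99.4 and 83.1 TPM), GPX3, a glutathione peroxidase (0.802, 1.17, 62.1 and 59), and GPAT2 (0.317, 0.115, 30.6 and 33.4) rose by about as much on both coatings. AXL, a receptor kinase, had 0.244, 0.320, 20.5 and 41.6 TPM. G0S2, an inhibitor of lipolysis, was at 0, 0.0773, 20.8 and 15.7 TPM, and in TKO its difference from NT was -0.05. BGN, LTK, SCML1, AEBP1, RPL39L, SLC43A3 and GPX7 were the other annotated genes of the largest rises, between 3.19 and 3.98.

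Among the falls, POPDC3 had 15.2, 16.0, 0.138 and 0.151 TPM and was not called in TKO against NT on DLL4 (adjusted p = 0.251). ACP5, an acid phosphatase, had 33.8, 22.8, 1.19 and 0.931 TPM, with differences of -3.81 on DLL4 and -0.97 on IgG. GAL, galanin, ESPN, CD69, RHOH, IGFBP5, COLEC10 and LCP2 fell by 3.28 to 3.77. The RNA5SP entries, 3 among the falls and 1 among the rises, are 5S ribosomal RNA pseudogenes of near-identical sequence and their values are uncertain.

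On IgG, the matched control coating, NKO differed from NT in 1418 genes, or 10.7% of those tested: 654 higher (4.92%) and 764 lower (5.74%). Called in the same direction on both coatings were 973 genes, 35.3% of the calls on DLL4 and 68.6% of those on IgG, and 6 genes were opposite. Of the 601 genes with at least a 2-fold difference on DLL4, 412 (68.6%) were called the same way on IgG. The 2 differences share no library, and across all genes they had a Pearson's r of 0.69, given as a description since genes are not replicates. A test of the difference between coatings called 118 genes (0.887%), 42 of them (0.316%) with the DLL4 value above and 76 (0.571%) below. The count was 31 to 72 when each of the 8 libraries was left out, lowest without NT 2 on DLL4. Of the 118, 97 were also called on DLL4, 65 lower and 32 higher. Of those 97, 66 were not called on IgG.

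EFNB2 had the largest of these among Notch targets, -3.17 (limma adjusted p = 0.000405). SLC46A3, a lysosomal transporter, had 68.7, 61.9, 12.4 and 13.4 TPM and fell by 2.25 on DLL4 and differed by -0.05 on IgG, with a difference between coatings of -2.20. SLC1A4, an amino acid carrier, had 18.3, 18, 6.39 and 7.27 TPM and was lower on DLL4 (-1.29) but higher on IgG (0.59). Of the 34 genes named here whose difference between coatings was called, 14 remained called under all 17 alternatives.

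**Figure D4:**
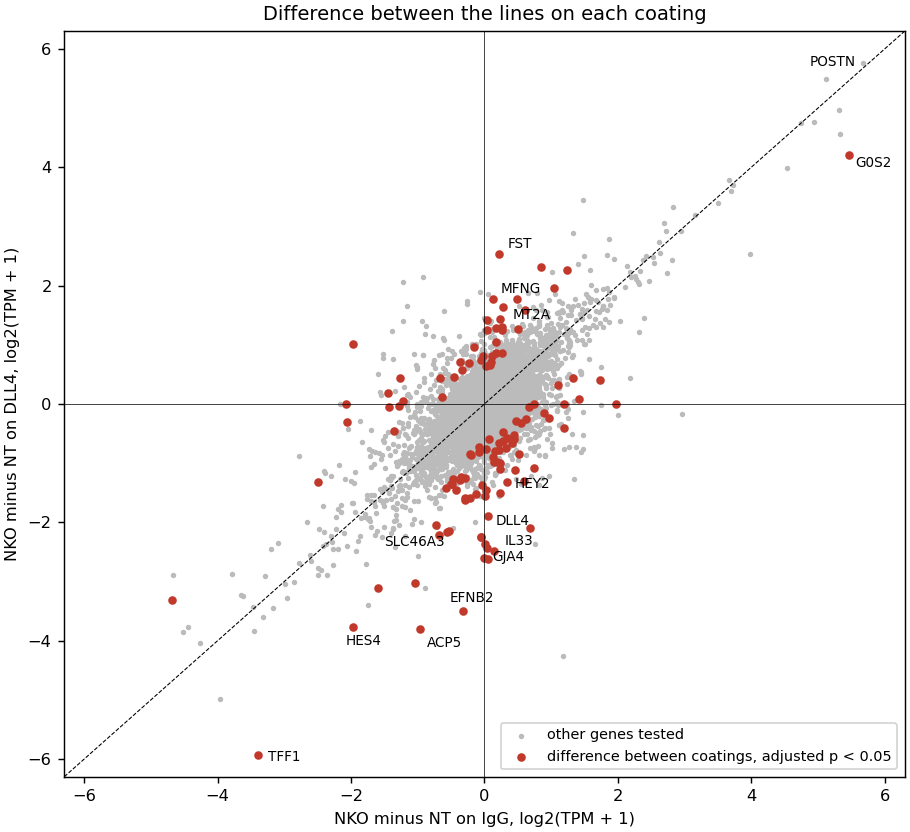
NKO minus NT on the log2(TPM + 1) scale, 1 point per tested gene, on IgG (x) and on DLL4 (y), with genes called for the difference between coatings in red and a dashed line of equal difference. POSTN lies near the line, while EFNB2, DLL4 and HEY2 lie near 0 on IgG and below 0 on DLL4, and FST and MFNG lie above 0 on DLL4.

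The comparison of NKO with TKO on DLL4, which shares the NKO libraries, called 3039 genes (22.9%), 1318 higher (9.91%) and 1721 lower (12.9%) in NKO. Of the Notch targets 6 were lower and 2 higher in NKO than in TKO, with a median of -0.25. HES4 had 45.1 and 41.5 TPM in TKO, and NKO lay below by 2.36 ± 0.19 (limma adjusted p = 1.02e-05). HEY2 had 63.3 and 56.4 TPM in TKO, and NKO lay below by 1.40. SNAI1, at 9.60 and 10.9 TPM in TKO, was higher in NKO by 1.27. For arterial genes 15 of 27 were lower in NKO than in TKO and 1 higher. Cholesterol synthesis genes were split, with 6 lower and 5 higher in NKO than in TKO and a median of -0.03. TKO against NT on DLL4, which shares the NT libraries, called 3543 genes (26.6%), 2147 higher (16.1%) and 1396 lower (10.5%). Of the 20 Notch targets 10 were lower in TKO than in NT and 3 higher, and of the 34 replication genes 22 were higher.

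Positions were examined because members of several lists lie in 2 stretches where neighbours differed together. The stretches were taken as runs of windows of 40 protein-coding genes with a median beyond 0.3 in size, a limit set after the data were seen. On chromosome 8 from ERICH1 to TERF1 (gene starts 614746 to 73008864, GRCh38), 102 of 203 genes were lower and 4 higher, with a median of -0.48 on DLL4, -0.47 on IgG and 0.00 in TKO against NT on DLL4. On chromosome 11 from TMEM135 to BACE1 (87037844 to 117285207), 43 of 90 genes were higher and 5 lower, with a median of 0.80 on DLL4, 0.61 on IgG and 1.06 in TKO against NT on DLL4. All other windows had medians from -0.10 to 0.23 on DLL4, and the genes outside the stretches counted 1473 higher and 1131 lower of 13006.

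List members in the chromosome 8 stretch were SOX17, SOX7, ANGPT2, MCM4, TNFRSF10A, TNFRSF10B, FDFT1, PLAT, LOXL2, SNAI2, DLC1, SLC39A14 and BMP1. Those in the chromosome 11 stretch were KDELC2, MAML2, MMP1, MMP10 and TAGLN. HES4, EFNB2, DLL4, HEY1, HEY2, GJA4 and UNC5B lie outside both. The part of these stretches in the difference of a member was not tested, and whether they come with the edit or with the line cannot be told apart.

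**Figure D5:**
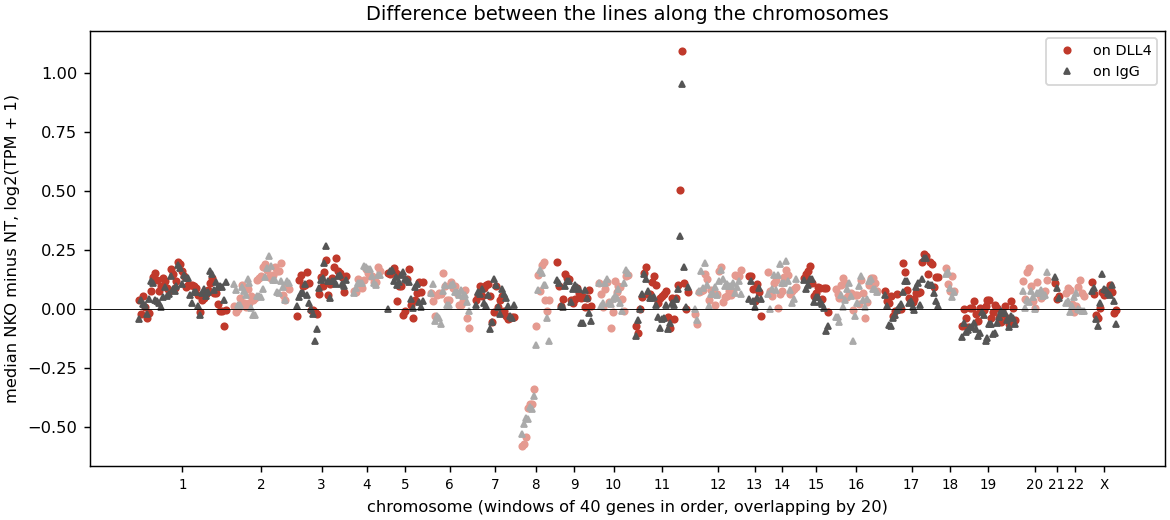
Median NKO minus NT on the log2(TPM + 1) scale in windows of 40 neighbouring protein-coding genes with a mean of at least 5 TPM, overlapping by 20, in order along each chromosome, circles on DLL4 and triangles on IgG, paler on every other chromosome. The windows at the start of chromosome 8 lie below -0.3 and those late on chromosome 11 reach 1.10 on DLL4 and 0.96 on IgG.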

How the data were processed

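RNA was sequenced from 12 libraries, 2 for each of 3 lines on each of 2 coatings. The authors deposited TPM per gene symbol; per the submitters' processing notes kallisto, edgeR and hg38 were used, with versions and settings not given in the sources used here. Genes with at least 1 TPM in at least 2 libraries were kept (13299 of 35587 symbols). limma 3.58.1 (R 4.3.3) was fitted to log2(TPM + 1) with 1 mean per group over all 12 libraries and a variance trend, with 6 residual degrees of freedom (10.8 after moderation). All p-values are two-sided and adjusted by Benjamini-Hochberg, called below 0.05, and the method was tested on simulated data. Python 3.11.15 and matplotlib 3.10.9 made the tables and figures.

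Column names number NT and TKO libraries 2 and 3 and NKO libraries 1 and 2, and the labels 1 and 2, so columns were assigned to groups by name and libraries are called by column number. The text names Notch pathway members, the 15 most raised and 15 most lowered genes among non-overlapping calls that reached a mean of 5 TPM in the higher group, up to 5 genes per list with the smallest p, and up to 5 per direction for the difference between coatings, plus other list members. All members and lists were chosen with earlier results of these data known, and lists share genes. Alternatives were the pseudocount, filters, scalings, KPNA2P2 left out, the variance trend, the libraries fitted, a replicate block and leaving out each library. Positions are from GENCODE 29 and promoters from RefSeq (GRCh38.p14). Some members of the lists are counted but not reported here by name.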

Additional observations from a re-analysis of the deposited data

Results flagged for a closer look

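For 34 of the named genes, the NKO minus NT difference on DLL4 departed from that on IgG by limma's interaction test, at an adjusted p below 0.05. Values are the difference on DLL4 minus the difference on IgG (log2), and a negative value means that NKO lay lower relative to NT on DLL4 than on IgG. Among Notch targets and arterial genes, the values were -3.17 for EFNB2, -2.61 for GJA4, -1.95 for DLL4, -1.79 for HES4, -1.65 for HEY2 and -0.65 for CDKN1A. HES4 was low on IgG, where log2(TPM + 1) understates the fall, so its value may be too large in size. MFNG had 1.65 and BMX 0.92. The HES4 call was lost without NKO 1 on DLL4 (adjusted p = 0.0543), NT 2 on DLL4 (0.0842) or NT 2 on IgG (0.0693).

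Genes of sprouting and vascular signalling included FLT1 (-1.02), APLN (1.03), ESM1 (0.98) and ADM, adrenomedullin (0.92). In the activin and IGF lists, FST had 2.31, FSTL3 -0.97 and IGFBP3 -1.33. In the cell cycle lists, CDKN2B had -1.40 and MCM2 0.77. Of inflammatory and coagulation genes, IL33 had -2.63, IRF1 -1.07, F2R -1.17 and MASP1 -2.38. Cytoskeletal and mesenchymal genes were SNAI2 (-1.52, in the chromosome 8 stretch), TPM1 (-0.64) and ARHGEF17 (-1.73). For both metallothioneins named the difference between coatings was positive, 1.36 for MT2A and 1.11 for MT1X.

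Of the genes with the largest differences, TFF1 had -2.53, ACP5 -2.84, COLEC10 1.37 and G0S2 -1.26. SLC46A3 (-2.20), SLC1A4 (-1.89), TBC1D2 (1.08) and HOXB6 (0.89) were named only because their p in this test was among the smallest of their direction.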

How the results depend on the processing

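Of 196 named genes, 166 were called on DLL4, and 137 of these were called under all 14 alternatives run. The count of 2758 calls on DLL4 was 1835 when only the libraries compared were fitted, and 1450 to 1802 when each library was left out. For the difference between coatings the 118 calls became 78 with no filter, 70 with only the libraries compared, and 31 to 72 when each library was left out. NKO minus TKO ranged from 1670 to 2096 calls in place of 3039 when each library was left out. With a pseudocount of 0.1 the difference between coatings was called for 88 genes in place of 118. The NOTCH1 call was lost with no filter (adjusted p = 0.0751) and with only the libraries compared in the fit (0.0682). The column number was not taken to pair the libraries: NKO and NT on DLL4 share number 2 only, where deviations from the group means correlated at -0.12. Those of NKO 2 on DLL4 correlated at 0.28 with NKO 2 on IgG and at -0.08 with NT 2 on IgG. With that replicate block, 1965 genes were called on DLL4, 100 for the difference between coatings and 2316 for NKO minus TKO, and NOTCH1 was lost (0.0852). With the block the sign turned for DLL1 (0.30), DLK1 (0.54), KDELC1 (-0.069) and NRARP (0.071). The sign of RFNG and KDELC1 turned with median-of-ratios rescaling (-0.028 and -0.039) and quantile normalization (-0.024 and -0.0076), and that of TSPAN14 with quantile normalization (0.0059). When each library was left out, the sign was not fixed for these genes, none of them called: the ranges were -0.15 to 0.14 for NOTCH2, -0.52 to 0.20 for NOTCH4, -0.75 to 0.32 for DLL1, -0.97 to 0.19 for DLK1, -0.14 to 0.33 for LFNG, -0.11 to 0.18 for RFNG, -0.047 to 0.11 for KDELC1, -0.063 to 0.25 for ADAM10, -0.19 to 0.093 for ADAM17, -0.078 to 0.031 for TSPAN14, -0.30 to 0.049 for PSEN2, -0.11 to 0.019 for NCSTN, -0.11 to 0.053 for PSENEN, -0.39 to 0.048 for NRARP and -0.37 to 0.18 for GATA3. Fewer libraries enter those fits, and for the other alternatives the cause was not tested. No read depth is known, so its limits cannot be given.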
